A study of Mus musculus with 12 samples.

Results

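Hearts of mice that carry the R172K mutant of IDH2 were compared with control hearts on Affymetrix mouse Gene 1.0 ST arrays, a microarray that reads most genes with one set of short probes each. The arrays were chosen by their titles alone, 4 titled R172K and 4 titled control, which are 8 of the 12 arrays of the series. The other 4 arrays came from hearts with the R140Q mutant of the same enzyme. They shared in the estimate of the spread and served as the second reference in a direct test between the mutants. Total RNA of whole heart, prepared with Trizol, was measured in all groups, and all mice were of a mixed C57BL/6, 129/sv and Balb/c background. R172K and R140Q mice had received 2 mg of 4-hydroxytamoxifen (4-OHT), a drug used to switch on Cre recombinase, over 3 days at an age of 5 weeks. The sources used here do not give what control mice received, which promoter drives mutant IDH2 or any Cre, in which cells, or the sex and the age at dissection. The effects of 4-OHT, of Cre and of the mutant enzyme therefore cannot be told apart in a comparison with control hearts. The labels number the replicates without naming animals, so p-values reflect only how far arrays of a group lie apart, which may in part be technical. The series concerns cardiomyopathy in these mice.

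IDH2 is the isocitrate dehydrogenase of the mitochondrial matrix and makes 2-oxoglutarate and NADPH from isocitrate. The R172K change replaces an arginine of the active site, and the mutant enzyme turns 2-oxoglutarate into D-2-hydroxyglutarate with use of NADPH. D-2-hydroxyglutarate can inhibit enzymes that need 2-oxoglutarate, among them histone and DNA demethylases, prolyl hydroxylases and some transaminases, and it is cleared by the mitochondrial enzyme D2HGDH. Heart muscle under strain is known to return to a partly fetal gene program, to lower genes of oxidative metabolism and of ion channels, and to lay down collagen through activated fibroblasts.

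Idh2 itself was bright in every heart. Its log2 intensity was 12.83, 12.85, 12.67 and 12.62 in control hearts 1 to 4 and 12.52, 12.55, 12.57 and 11.88 in R172K hearts 1 to 4. The mean difference of -0.36 ± 0.14 (limma's moderated SE) did not pass the test (adjusted p = 0.109). Each R172K heart lay under each control heart, and the groups did not overlap in 16.2% of all genes. The mean difference rested most on R172K 4, the lowest of the 8 hearts. The sources used here do not say whether this probe set detects mutant IDH2 RNA, so it does not check the labels.

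The arrays carried the pattern of heart tissue. Summed cardiomyocyte markers lay at log2 17.21, 17.21, 17.17 and 17.17 in control and at 17.01, 17.02, 17.07 and 16.82 in R172K hearts, with Myh6, the main adult myosin heavy chain, at 13.38 ± 0.04 (mean ± SD, n = 4) and 13.12 ± 0.19. Markers of lymphocytes, lung, red blood cells, neurons and thymus held no gene called between R172K and control hearts. In fits without 1 array, lymphocyte markers held up to 1 call and neuron markers up to 1 in each direction. One R140Q array carried lung markers: their summed level was 12.52 in R140Q 4 and 9.04 to 9.21 in the other 11 arrays. That array enters the estimate of the spread, and 2293 genes were called between R172K and control hearts without it, against 2593 with it. Atrial tissue was unequal among the arrays: the atrial light chain Myl7 measured 8.58, 6.18, 12.49 and 8.99 in control and 8.47, 7.43, 11.36 and 9.21 in R172K hearts, so control 3 and R172K 3 held the most. R172K 3 also lay closest to the control hearts over all genes. On the first principal component, which held 40.7% of the variance, control hearts 1 to 4 lay at -26.88, -25.72, -17.09 and -17.80. R172K hearts 1 to 4 lay at 23.94, 17.87, -6.19 and 40.75. The control hearts thus formed a pair of control 1 and control 2 and a pair of control 3 and control 4. Over all probe sets the SD of the log2 difference between arrays was 0.248 and 0.275 within these pairs and 0.287 to 0.324 across them. No fit left out a control pair, and the cause was not tested. The median SD over genes was 0.141 among R172K hearts and 0.104 among control hearts.

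Between R172K and control hearts, 2593 of 19937 genes passed limma's test at a Benjamini-Hochberg adjusted p under 0.05, which is 13.0% of the genes. These called genes comprised 1242 that rose (6.23%) and 1351 that fell (6.78%). Most differences were small, with a median size of 0.471 in log2 among called genes, and 1701 differed by less than 1.5-fold. At least 2-fold differences were found for 116 genes that rose and 126 that fell, and at least 4-fold ones for 15 and 8. The values of the 4 R172K hearts did not overlap those of the 4 control hearts in 3228 genes (16.2%), of which 2160 were also called. The count depended on single arrays, with 1327 genes called without R172K 1, 1480 without control 2, 1559 without control 1 and 4157 without R172K 3. Of the 2593 genes, 1176 kept the call in each of the 12 fits that left out 1 array. A called gene with no such remark kept its call in all 12; for the others the arrays whose absence ended it are given. Counts of list members are followed by the lowest and highest count over the same 12 fits.

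The gene with the largest increase was Nmrk2, the muscle nicotinamide riboside kinase, which makes nicotinamide mononucleotide for NAD synthesis. It measured 7.65, 7.55, 7.33 and 7.58 in control hearts 1 to 4 and 12.24, 12.40, 11.47 and 12.03 in R172K hearts 1 to 4. The 2 groups were far apart and all 4 R172K hearts were high, which gave a rise of 4.51 ± 0.69 in log2, or 22.7-fold (adjusted p = 0.0027). This SE pools the spread of all 3 groups, and the SD of Nmrk2 was 0.14 in control, 0.40 in R172K and 1.93 in R140Q hearts. Timp1, a secreted inhibitor of matrix metalloproteinases, measured 5.83, 6.17, 6.36 and 6.50 in control and 9.86, 10.18, 7.59 and 11.53 in R172K hearts. It rose 11.9-fold on average (3.57 ± 0.62 in log2, adjusted p = 0.00442). R172K 4 was highest, and R172K 3 was the lowest mutant heart but above every control heart. The SD of Timp1 was 0.29 in control and 1.64 in R172K hearts. Lox, the lysyl oxidase that cross-links collagen and elastin, was also highest in R172K 4 and lowest among mutant hearts in R172K 3. It measured 6.15, 6.34, 5.94 and 6.26 in control and 10.16, 9.78, 7.28 and 10.90 in R172K hearts and rose 10.3-fold (3.36 ± 0.60, adjusted p = 0.00508).

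**Figure D1:**
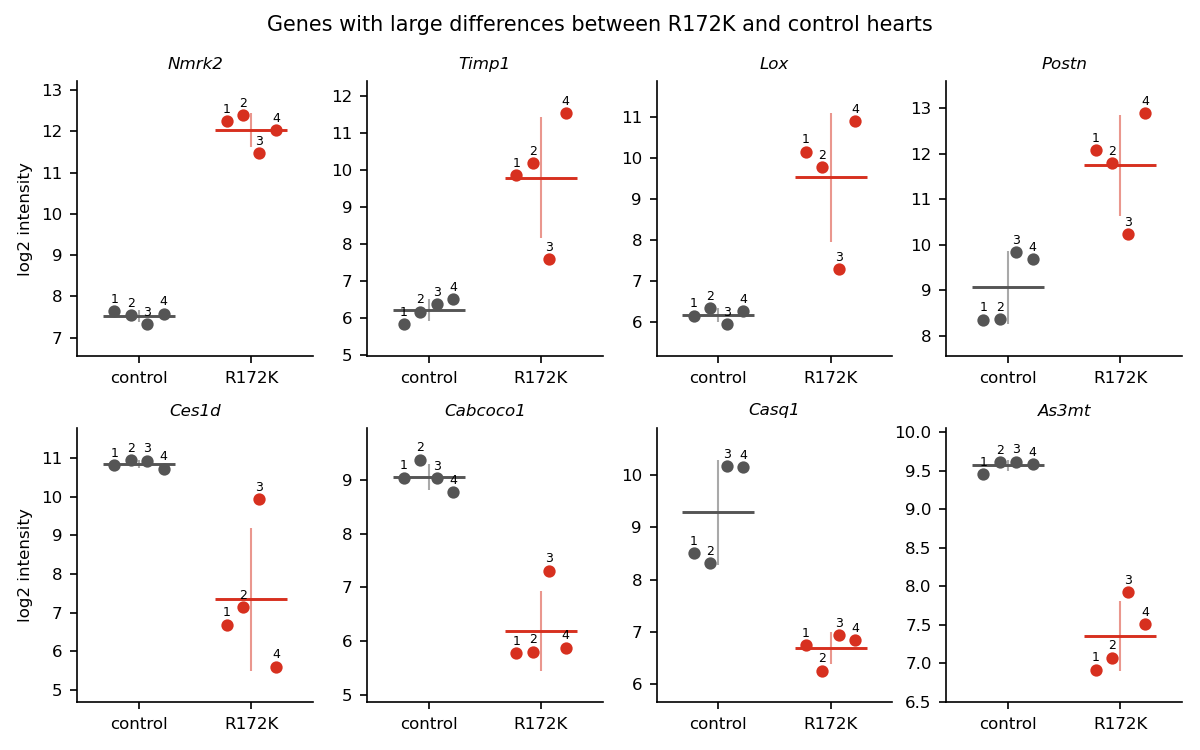
Log2 intensity (vertical axis) of 4 genes that rose and 4 that fell, by group. Points are single hearts numbered by replicate, horizontal lines are means and vertical lines are 1 SD either side (n = 4). In all 8 genes the 4 R172K hearts lie apart from the 4 control hearts, and the R172K heart nearest the controls is R172K 3.

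Among the 15 largest increases, 7 more belonged to the extracellular matrix or its regulators. Tenascin C (Tnc), a matricellular protein of injured tissue, rose by 2.69 ± 0.54, periostin (Postn), the product of activated fibroblasts, by 2.68 ± 0.56, and the short-chain collagen Col8a1 by 2.28 ± 0.44. The microfibril gene Mfap5 rose by 2.27 ± 0.37 and Frzb, a secreted Wnt antagonist, by 2.28 ± 0.40. Thrombospondin 1 (Thbs1), an activator of latent TGF-beta, rose by 2.37 ± 0.70 (adjusted p = 0.0439), a call that ended on omission of control 1, 2 or 3, R140Q 1 or 3 or R172K 1, 2 or 4 (adjusted p = 0.0516 to 0.124). Cilp, a matrix protein of cartilage and scarred heart, rose by 2.15 ± 0.51, and its call ended without control 2 (adjusted p = 0.0562).

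The other large increases were in genes of muscle or general cell function. Sprr1a, a small proline-rich protein made by strained cardiomyocytes, measured 6.00, 6.23, 6.20 and 5.95 in control and 8.75, 9.05, 7.14 and 10.33 in R172K hearts and rose 6.6-fold (adjusted p = 0.00508). R172K 4 was highest by more than 1 log2 unit and R172K 3 lowest. Baiap2l1, which bends membranes and bundles actin, rose by 2.23 ± 0.57, the uridine-cytidine kinase Uck2 by 2.00 ± 0.26, the F-box adaptor Fbxo44 by 2.07 ± 0.32 and Nxpe4 by 2.19 ± 0.41. The call of Baiap2l1 ended on omission of control 1, 2 or 3 or R172K 1 or 2 (adjusted p = 0.0511 to 0.0739).

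The largest decrease was in Ces1d, a carboxylesterase that hydrolyses triglycerides and drug esters. Its values were 10.82, 10.95, 10.93 and 10.73 in control and 6.69, 7.14, 9.94 and 5.60 in R172K hearts, a difference of -3.51 ± 0.81 in log2, or 11.4-fold lower (adjusted p = 0.0153). R172K 3 was the mutant heart nearest the controls while R172K 4 was lowest, and the call ended without R172K 1 (adjusted p = 0.0513). As3mt, which methylates arsenic, was far more even: 9.46, 9.61, 9.62 and 9.58 in control against 6.91, 7.07, 7.92 and 7.51 in R172K hearts, a difference of -2.21 ± 0.20, or 4.64-fold lower (adjusted p = 0.0005). Cabcoco1, a calcium-binding coiled-coil protein, fell from 9.05, 9.38, 9.03 and 8.78 to 5.78, 5.80, 7.31 and 5.88 (7.3-fold, adjusted p = 0.00133), with R172K 3 apart from the other three.

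Several of the other lowered genes encode muscle proteins. The myosin light chain kinase Mylk4 fell by 3.18 ± 0.74, with the call ended without R172K 1 (adjusted p = 0.0557). Casq1, the calcium-binding protein of the sarcoplasmic reticulum best known from skeletal muscle, measured 8.51, 8.31, 10.17 and 10.14 in control and 6.75, 6.26, 6.93 and 6.84 in R172K hearts. As on the first principal component, the control hearts formed a low pair (1 and 2) and a high pair (3 and 4). All R172K hearts lay under both (difference -2.59 ± 0.52, adjusted p = 0.00825). The ribosomal protein Rpl3l, which replaces Rpl3 in muscle, fell by 1.93 ± 0.38, and the substrate adaptors Asb15 and Asb14 fell by 2.20 ± 0.36 and 1.91 ± 0.34. The others were the secreted protein Lgi1 (difference -2.75), the integrin subunit Itgb6 (-2.35), the neutral amino acid transporter Slc38a4 (-1.99), the kelch protein Klhdc1 (-1.98), the secretoglobin Scgb1c1 (-1.96), the GABA receptor subunit Gabrg3 (-1.94) and the dihydrodiol dehydrogenase Dhdh (-1.94).

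Gene lists for 50 pathways and for some of the 17 cell types are described next by how many of their measured members rose or fell. Some of the cell type lists left out also held called members. The shares of all genes that rose (6.23%) and fell (6.78%) are the background for these counts, and the median log2 difference over all genes was -0.003. RNA of whole heart was measured, so fewer cells of a type and less RNA per cell cannot be told apart.

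**Figure D2:**
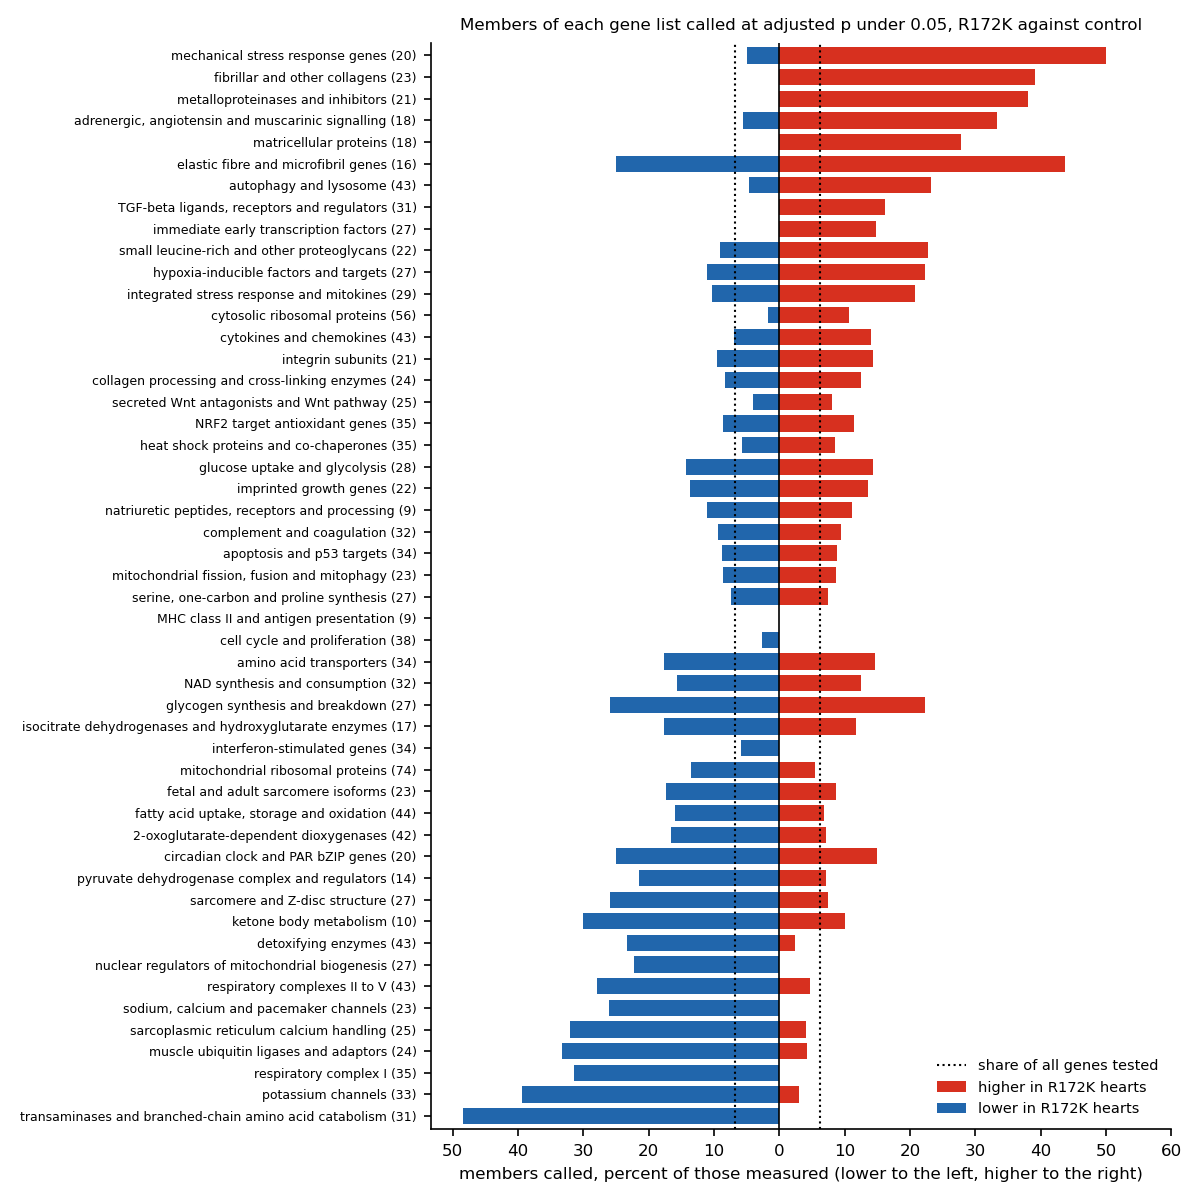
Share of the measured members of each pathway list that were called higher (red, to the right) or lower (blue, to the left) in R172K than in control hearts, in percent, with the number of measured members in brackets. The dotted lines mark the share over all 19937 genes, 6.23% higher and 6.78% lower; the mechanical stress list, with 10 of 20 members higher, and the transaminase list, with 15 of 31 lower, lie at the ends.

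Collagen and matrix genes were higher in R172K hearts. Of 23 collagens, 9 rose and 0 fell, with a median difference of 0.64 (4 without R172K 1 to 11 without R140Q 3 or R172K 3 rose). Col1a1, the main chain of fibrillar collagen I, measured 8.40, 8.27, 8.66 and 8.71 in control and 10.15, 9.59, 9.23 and 11.00 in R172K hearts and rose by 1.48 ± 0.33 (adjusted p = 0.0134). R172K 4 was highest and R172K 3 lowest of the mutant hearts. The basement membrane chains Col4a1 and Col4a2 rose by 0.99 ± 0.14 and 1.01 ± 0.12, more evenly across hearts. Col3a1 rose by 1.26 ± 0.34, with its call ended on omission of control 1, 2, 3 or 4 or R172K 1 (adjusted p = 0.052 to 0.0855), and Col12a1 by 1.65 ± 0.44, with its call ended on omission of control 1, 2 or 4 or R172K 1, 2 or 4 (adjusted p = 0.0505 to 0.0826).

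Enzymes that process collagen moved in both directions. Of 24, 3 rose (2 on omission of control 1 or 2 or R172K 1, 2 or 4 to 8 without R172K 3) and 2 fell (1 on omission of control 2, 3 or 4 or R172K 1 or 2 to 3 without R172K 4). Beside Lox, its relative Loxl1 rose by 1.43 ± 0.31 (adjusted p = 0.0109), while the collagen galactosyltransferase Colgalt2 fell by 0.45 ± 0.10. P4ha2, a prolyl hydroxylase subunit that needs 2-oxoglutarate, fell by 0.54 ± 0.14, and its call ended on omission of control 2, 3 or 4 or R172K 1 or 2 (adjusted p = 0.0586 to 0.0866).

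Metalloproteinases and their inhibitors rose in 8 of 21 members, with none lower (6 on omission of control 1 or 2 or R172K 1 or 4 to 12 without R172K 3 rose). Next to Timp1 these included the membrane collagenase Mmp14 (1.43 ± 0.26), the macrophage elastase Mmp12 (0.62 ± 0.14) and the proteoglycan-cleaving Adamts9 (0.77 ± 0.12), Adamts12 (0.60 ± 0.12) and Adamts4 (0.56 ± 0.12). Matricellular genes rose in 5 of 18 (3 on omission of control 1 or 2 or R172K 1 to 8 without R172K 3), among them Ccn2, a target of TGF-beta and YAP, by 1.07 ± 0.24.

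Genes of elastic fibres split, with 7 of 16 higher (3 without control 2 to 11 without R172K 3) and 4 lower (1 without R172K 1 or 2 to 4). Fibulin 2 (Fbln2) rose by 1.29 ± 0.29 and Emilin1 by 0.83 ± 0.19, and Ltbp1, which tethers latent TGF-beta to microfibrils, fell by 0.67 ± 0.08. Elastin (Eln) rose by 0.81 ± 0.20, with the call ended without control 2 (adjusted p = 0.0574). Among proteoglycans 5 of 22 rose (1 on omission of control 1 or 2 or R172K 1 to 7 without R172K 3) and 2 fell (1 without control 1 to 2), where asporin (Aspn) rose by 0.92 ± 0.20 and osteoglycin (Ogn) fell by 0.71 ± 0.12.

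The signals that act on fibroblasts were less uniform. Of 31 TGF-beta pathway genes, 5 rose and none fell (2 without control 2 to 8 without R172K 3 rose, 0 to 1 without R172K 3 fell), led by follistatin-like 1 (Fstl1, 1.65 ± 0.36) and the ligand Tgfb1 (0.74 ± 0.17, adjusted p = 0.0142). In the Wnt list of 25 genes, 2 rose (1 on omission of control 1 or 2 or R172K 1, 2 or 4 to 4 without R172K 3) and 1 fell (1 to 2 without R140Q 1 or R172K 3), and its secreted antagonists went opposite ways: Frzb measured 6.39, 6.71, 7.08 and 7.10 in control and 9.64, 8.84, 7.84 and 10.08 in R172K hearts, while Wif1 fell by 1.24 ± 0.17. The shares of the Wnt list that rose and fell were near those of all genes (6.23% and 6.78%). Integrins rose in 3 of 21 (2 on omission of control 1, 2 or 4 or R172K 1, 2 or 4 to 7 without R172K 3) and fell in 2 (1 on omission of control 1, 2, 3 or 4, R140Q 1, 3 or 4 or R172K 1, 2 or 4 to 2). Itgb3 rose by 0.69 ± 0.11 and the laminin receptor subunit Itga6 by 0.53 ± 0.12, and Itgb6, part of an integrin that activates latent TGF-beta, fell 5.09-fold from 8.36, 8.68, 8.58 and 8.70 to 5.42, 5.74, 7.36 and 6.41 (adjusted p = 0.00142).

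Markers of fibroblasts and macrophages rose in part of their members. Myofibroblast markers rose in 7 of 16 members (4 without control 2 to 9 without R172K 3), and their summed log2 level was 12.13, 12.24, 12.29 and 12.46 in control and 13.75, 13.41, 12.70 and 14.66 in R172K hearts. This list holds Lox, Col8a1, Tnc and Postn, so it is no separate evidence. Of 21 markers of resting fibroblasts, 6 rose (3 on omission of control 1 or 2 or R172K 1 to 6) and 2 fell (0 without control 4 or R172K 1 to 3 without R172K 3), and the fibroblast receptor Pdgfra rose by 0.62 ± 0.11. Macrophage markers rose in 5 of 26 and fell in 1, but these counts ran from 0 on omission of control 1 or 2 or R172K 1 to 12 without R172K 3 higher and from 0 on omission of control 2, 3 or 4 or R172K 1 or 2 to 2 without R172K 3 or 4 lower. Their summed level was 12.48, 12.57, 12.86 and 13.00 in control and 13.02, 12.95, 12.61 and 13.74 in R172K hearts, so R172K 4 stood above all others and R172K 2 and R172K 3 lay among the controls. The defining macrophage gene Adgre1 measured 7.02, 7.04, 7.55 and 7.49 and 7.17, 7.12, 6.99 and 8.74 and did not pass the test. The part of macrophage and fibroblast RNA in the matrix values was not tested.

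Calls among cytokine and coagulation genes went in both directions. Except for the increases among cytokines, their shares were near those of all genes (6.23% higher and 6.78% lower). Of 43 cytokines and chemokines, 6 rose (2 without control 1 to 11 without R172K 3) and 3 fell (2 on omission of control 1, 2, 3 or 4, R140Q 3 or 4 or R172K 1 or 3 to 4 without R172K 4). Tnfrsf12a, the receptor of TWEAK, rose by 1.53 ± 0.21 and the chemokine Ccl17 by 1.04 ± 0.15, while the eosinophil chemokine Ccl11 fell by 0.92 ± 0.20 and cardiotrophin (Ctf1) by 0.70 ± 0.14. In the complement and coagulation list, 3 of 32 rose (2 on omission of control 1, 2 or 4 or R172K 2 or 4 to 6 without R172K 3) and 3 fell (3 to 4 without R172K 3 or 4). The thrombin receptor F2r rose by 1.26 ± 0.22 and tissue plasminogen activator (Plat) by 0.81 ± 0.11. The tissue factor pathway inhibitor Tfpi fell by 1.48 ± 0.25 and the thrombin cofactor thrombomodulin (Thbd) by 0.42 ± 0.09.

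Genes that cardiomyocytes switch on under mechanical strain had the highest share of increases of the 50 pathway lists, with 10 of 20 higher and 1 lower and a median of 0.58 (8 without control 1 to 14 without R172K 3 rose, 0 on omission of control 1, 2 or 4, R140Q 1 or R172K 1 or 2 to 2 without R140Q 2 or R172K 3 fell). Fhl1, a LIM-domain protein that senses strain at the sarcomere, measured 10.77, 11.15, 10.48 and 10.46 in control and 12.07, 12.10, 11.37 and 12.31 in R172K hearts and rose by 1.25 ± 0.26 (adjusted p = 0.00968). Ankrd1, which sits on titin and moves to the nucleus under strain, measured 12.60, 12.45, 12.66 and 12.52 and 13.39, 13.21, 12.81 and 13.43, a rise of 0.65 ± 0.14. The groups did not overlap in either gene, though R172K 3 came close to the controls in both. The actin cross-linker Flnc rose by 0.99 ± 0.15, the actin-binding repeat protein Xirp2 by 0.83 ± 0.17, the LIM protein Lmcd1 by 0.77 ± 0.11, the actin polymerisation factor Enah by 0.72 ± 0.16 and the small heat shock protein Hspb7 by 0.36 ± 0.08. Ankrd2 rose by 1.05 ± 0.25, with its call ended without control 1 (adjusted p = 0.0508). Fhl2, the close relative of Fhl1, fell by 0.34 ± 0.10, a call that ended on omission of control 1, 2 or 4, R140Q 1 or R172K 1, 2 or 4 (adjusted p = 0.0515 to 0.113).

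Hormone and contractile isoform genes gave a mixed picture of the fetal program. Natriuretic peptide B (Nppb) rose 3.69-fold, from 10.27, 10.58, 10.47 and 9.77 to 12.36, 12.38, 11.25 and 12.65 (adjusted p = 0.00201), with the groups well apart. Nppa, the atrial peptide, measured 12.01, 12.20, 13.48 and 11.08 in control and 13.35, 12.98, 13.33 and 13.11 in R172K hearts, and this difference did not pass the test (adjusted p = 0.566) where the controls spread over more than 2 log2 units. Mme, the protease that degrades natriuretic peptides, fell by 1.05 ± 0.20. Skeletal actin (Acta1) rose by 1.49 ± 0.16, from 11.01, 11.46, 11.00 and 11.17 to 12.65, 12.76, 12.35 and 12.86. The fetal myosin heavy chain Myh7 measured 9.39, 9.27, 9.77 and 9.31 and 8.96, 9.09, 8.99 and 8.16, lower in each R172K heart but not called (adjusted p = 0.158). The ventricular light chain Myl2 fell by 0.54 ± 0.12. Of 23 isoform genes, 2 rose (1 without control 1 to 4 without control 3) and 4 fell (3 on omission of control 1, 2 or 4 or R172K 1, 2 or 4 to 6 without R172K 3).

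Promoter sequences of 6 genes that rose are shown because each holds a motif of a factor known from strained heart muscle. They are RefSeq sequences of build GRCm38.p6, read 5′ to 3′ on the gene's strand, upstream of the annotated start. Capitals mark a CArG box (the site of serum response factor), the MCAT motif GGAATG or its reverse complement (the site of TEAD factors), or the AP-1 motif TGANTCA. The stretches lie at chr8:123894796-123894875, minus strand (Acta1), chr4:147985770-147985829, plus strand (Nppb), chr19:36119950-36120064, minus strand (Ankrd1), chrX:56779553-56779612, plus strand (Fhl1), chr6:112273518-112273577, plus strand (Lmcd1) and chr3:92485972-92486051, minus strand (Sprr1a).
Acta1: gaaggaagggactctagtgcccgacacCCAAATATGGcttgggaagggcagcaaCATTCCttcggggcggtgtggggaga
Nppb: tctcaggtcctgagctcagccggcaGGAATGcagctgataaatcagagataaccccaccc
Ankrd1: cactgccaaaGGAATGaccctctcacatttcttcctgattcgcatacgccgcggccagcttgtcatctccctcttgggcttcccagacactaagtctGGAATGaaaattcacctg
Fhl1: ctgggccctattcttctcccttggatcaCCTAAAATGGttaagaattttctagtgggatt
Lmcd1: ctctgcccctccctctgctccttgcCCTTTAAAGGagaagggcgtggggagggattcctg
Sprr1a: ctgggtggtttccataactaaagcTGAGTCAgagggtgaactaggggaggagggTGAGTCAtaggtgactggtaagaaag

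Acta1 holds a CArG box and an MCAT motif within 80 bases, Ankrd1 holds 2 MCAT motifs and Sprr1a holds 2 AP-1 motifs. Of the 10 stress genes that rose, 9 had a promoter of 300 bases in the table, and on both strands 3 held MCAT (Ankrd1, Flnc and Hspb7), 2 a CArG box (Fhl1 and Lmcd1) and 2 AP-1 (Sprr1a and Xirp2). Over the promoters of all 15613 genes with one, 15.1% held MCAT, 1.63% a CArG box and 8.08% AP-1. For the 1010 genes with a promoter among all that rose, the shares were 14.5%, 1.88% and 7.62%. For the 1092 among all that fell, they were 15.8%, 2.47% and 5.86%. The promoter of Fhl2, the stress gene that fell with the call ended on omission of control 1, 2 or 4, R140Q 1 or R172K 1, 2 or 4 (adjusted p = 0.0515 to 0.113), also held a CArG box. These matches describe letters in a window, and no binding was measured.

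Structural genes of the sarcomere were called lower more often than higher, 7 against 2 of 27 (4 without control 1 or R172K 1 to 8 without R172K 3 or 4 fell, 0 on omission of control 3 or 4 or R172K 1 or 2 to 3 without R172K 3 rose). The list as a whole did not shift, with a median difference of 0.01 and 14 positive against 13 negative differences. The thin filament protein Lmod3 measured 10.22, 10.20, 9.93 and 10.08 in control and 9.51, 9.57, 9.41 and 9.32 in R172K hearts, a difference of -0.66 ± 0.09 with tight groups (adjusted p = 0.00177). The nebulin relative Nebl fell by 0.51 ± 0.10, delta-sarcoglycan (Sgcd) by 0.33 ± 0.07 and the fast myosin-binding protein Mybpc2 by 1.32 ± 0.21. Of the cardiomyocyte markers, 9 of 16 fell and 1 rose, all by less than 1.5-fold, and the count of lower markers ran from 2 without control 1 or R172K 1 to 10 without R172K 3. Their summed level was lower in each R172K heart than in each control heart, and its part in the decreases of muscle genes was not tested.

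Substrate adaptors of muscle ubiquitin ligases fell in 8 of 24 members and rose in 1 (4 without R172K 1 to 12 without R172K 3 fell). These proteins choose targets for cullin ligases, and the Asb family joins ankyrin repeats to a SOCS box. Asb15 measured 10.20 ± 0.19 (SD, n = 4) in control and 7.42, 7.83, 9.39 and 7.37 in R172K hearts (adjusted p = 0.00352), with R172K 3 the highest of the mutants and still under all controls. Asb18 fell by 0.81 ± 0.12 and Asb10 by 0.72 ± 0.13. Asb5 fell by 1.57 ± 0.38, with its call ended without R172K 1 (adjusted p = 0.0638). Fbxo44 went the other way, from 5.98, 5.93, 7.45 and 7.42 to 8.92, 9.05, 8.78 and 8.29, or 4.19-fold (adjusted p = 0.00298).

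Potassium channel genes fell more often than they rose. Of 33 potassium channel subunits 13 fell and 1 rose (9 without R172K 1 to 14 without R172K 3 fell, 1 to 2 without R172K 1 rose), with a median of -0.19. Of those that carry the fast outward current of repolarisation, Kcnip2, the calcium-binding partner of Kv4 channels, fell by 1.44 ± 0.33 and the Kv4 pore subunits Kcnd2 and Kcnd3 by 1.00 ± 0.18 and 0.37 ± 0.06. Kcnip2 measured 10.63, 10.64, 10.15 and 10.23 in control and 8.90, 9.07, 10.01 and 7.91 in R172K hearts (adjusted p = 0.0152), without overlap. Pore genes of the delayed rectifier currents, Kcnh2 and Kcnq1, fell by 0.70 ± 0.14 and 0.35 ± 0.07, and the sulfonylurea receptor Abcc9, part of the ATP-sensitive channel, by 1.11 ± 0.18. The silent subunit Kcnv2 fell by 1.71 ± 0.30, the acetylcholine-gated subunit Kcnj5 by 0.90 ± 0.18 and the calcium-activated channel Kcnn2 by 0.80 ± 0.17. Kcnj2, the inward rectifier of the resting potential, fell by 0.82 ± 0.19, and the call ended on omission of control 1 or 2 or R172K 1 (adjusted p = 0.0507 to 0.0567). Kcnk6 was the member that rose, by 0.54 ± 0.12.

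Sodium, calcium and pacemaker channel genes fell in 6 of 23 members and rose in none (3 without control 2 to 6 fell). The calcium channel subunit Cacna2d1 fell by 1.18 ± 0.12, the T-type channel Cacna1g by 1.02 ± 0.11 and the pacemaker channel Hcn4 by 0.91 ± 0.12 (adjusted p = 0.00152). In the calcium store of the sarcoplasmic reticulum, 8 of 25 fell and 1 rose, counts that ran from 2 on omission of control 1 or 2 or R172K 1 or 4 to 8 lower and from 0 without control 1 or R172K 1 to 2 without control 3 or R172K 3 higher. The histidine-rich calcium-binding protein Hrc fell by 0.95 ± 0.17 and the kinase Camk2a by 0.92 ± 0.12. The release channel Ryr2 fell by 0.49 ± 0.13, with its call ended on omission of control 1 or 2 or R172K 1, 2 or 4 (adjusted p = 0.0534 to 0.0788). Of 18 genes of adrenergic, angiotensin and muscarinic signalling, 6 rose (2 without R172K 1 to 7 without R140Q 2 or R172K 3) and 1 fell (0 without R172K 1 to 4 without R172K 3). The endothelin receptor Ednrb rose by 0.94 ± 0.11 and the protein kinase A regulatory subunit Prkar1a by 0.70 ± 0.14.

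**Figure D3:**
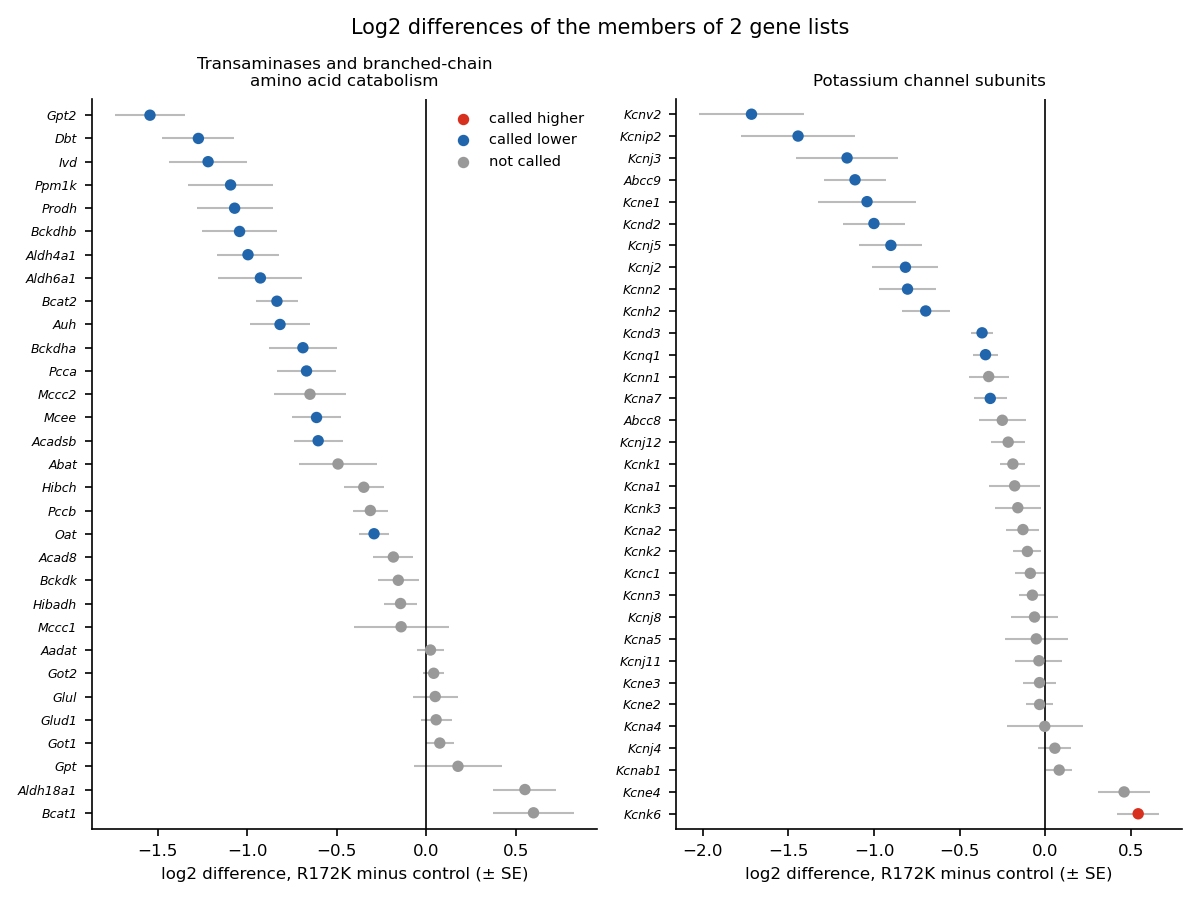
Log2 difference between R172K and control hearts (horizontal axis, points; bars are 1 SE either side) for each measured member of the transaminase and branched-chain amino acid list (left) and of the potassium channel list (right). Blue members were called lower, red ones higher and grey ones were not called: 15 of 31 and 13 of 33 were lower, with Gpt2 and Kcnv2 at the low ends.

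The joint list of transaminases and of branched-chain amino acid catabolism had the highest share of decreases of the 50 pathway lists. Of 31 transaminase and branched-chain amino acid genes, 15 fell and none rose, with a median of -0.49 (11 without control 2 or R172K 1 to 18 without R172K 3 fell, and 0 to 2 without R172K 3 rose). Gpt2, the mitochondrial alanine transaminase, measured 8.21, 8.35, 8.46 and 8.51 in control and 6.58, 6.63, 7.49 and 6.66 in R172K hearts, a difference of -1.54 ± 0.20, or 2.91-fold lower (adjusted p = 0.00133). Bcat2, the mitochondrial branched-chain transaminase and thus the first step for leucine, isoleucine and valine, measured 10.08, 10.23, 9.88 and 10.02 and 9.17, 9.23, 9.48 and 8.99, a difference of -0.83 ± 0.12 (adjusted p = 0.00193). In both genes R172K 3 was the highest mutant heart and still lay under every control heart.

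The decreases ran down the branched-chain route. The ketoacid dehydrogenase that follows Bcat2 lost transcript of its core subunit Dbt (difference -1.27) and of Bckdhb (-1.04), as did its activating phosphatase Ppm1k (-1.09). The kinase that inhibits it, Bckdk, measured 9.97 ± 0.07 and 9.81 ± 0.24 (adjusted p = 0.43). Ivd, which acts on the leucine product, fell by 1.22 ± 0.22, Auh, a later leucine step, by 0.82 ± 0.17, Acadsb, which acts on the isoleucine product, by 0.60 ± 0.14, and Mcee, near the end of the valine and isoleucine routes, by 0.61 ± 0.14. Prodh and Aldh4a1, the 2 steps from proline to glutamate, fell by 1.07 ± 0.21 and 1.00 ± 0.17. The aspartate transaminases Got1 and Got2 and glutamate dehydrogenase Glud1 were not called, with differences of 0.08 ± 0.08, 0.04 ± 0.06 and 0.06 ± 0.09. The cytosolic branched-chain transaminase Bcat1 measured 6.06, 6.07, 6.39 and 6.36 in control and 6.79, 6.40, 6.44 and 7.64 in R172K hearts; the groups did not overlap but the difference was not called (adjusted p = 0.107).

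Amino acid transporters changed both ways, 5 of 34 higher (3 on omission of control 1, 2, 3 or 4 or R172K 1, 2 or 4 to 9 without R172K 3) and 6 lower (3 without control 2 or R172K 1 to 8 without R172K 3). Slc38a4 fell 3.98-fold, from 7.94, 7.81, 7.87 and 7.42 to 5.16, 5.77, 6.49 and 5.64 (adjusted p = 0.000716). The aromatic amino acid carrier Slc16a10 fell by 0.63 ± 0.14. The large neutral amino acid exchanger Slc7a5 rose by 0.80 ± 0.18, the leucine carrier Slc43a2 by 0.48 ± 0.10 and the taurine carrier Slc6a6 by 0.66 ± 0.14. Of 27 genes of serine, one-carbon and proline synthesis, 2 rose (1 on omission of control 1 or 2 or R172K 1 to 5 without R172K 3) and 2 fell (2 to 5 without R172K 3). Both shares were near those of all genes (6.23% and 6.78%). Mthfd2, the mitochondrial folate enzyme often raised in mitochondrial disease, rose by 1.01 ± 0.23 (adjusted p = 0.0145); without R172K 3 and R172K 4 together it was 0.0506. Phgdh, the first step of serine synthesis, was not called (0.21 ± 0.15). In the integrated stress response list 6 of 29 rose (2 on omission of control 1 or 2 or R172K 1 to 10 without R172K 3) and 3 fell (0 on omission of control 2 or R172K 1 or 2 to 5 without R172K 3). Nupr1, a target of ATF4, rose by 0.89 ± 0.19. The hormone Fgf21 was not called (-0.05 ± 0.06).

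Among genes around IDH2, the enzyme that clears D-2-hydroxyglutarate fell. D2hgdh measured 8.21, 8.56, 8.16 and 8.35 in control and 7.30, 7.70, 7.99 and 7.17 in R172K hearts, a difference of -0.78 ± 0.16 without overlap (adjusted p = 0.0102). The dicarboxylate carrier Slc25a10 rose by 0.53 ± 0.11. Cytosolic Idh1 was not called (-0.25 ± 0.14), nor was Adhfe1, which can form D-2-hydroxyglutarate, with 9.86, 9.92, 10.72 and 10.62 in control and 9.34, 9.62, 10.43 and 8.47 in R172K hearts. Of 17 list members 2 rose (1 on omission of control 1, 2 or 4, R140Q 1, 3 or 4 or R172K 1, 2 or 4 to 2) and 3 fell (1 on omission of control 2, 3 or 4 or R172K 1 or 4 to 4 without R172K 3).

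Beyond Nmrk2, the NAD list moved both ways, with 4 of 32 higher (3 on omission of control 1, 2, 3 or 4, R140Q 1 or 4 or R172K 1 or 2 to 5 without R172K 3) and 5 lower (3 on omission of control 2 or 4 or R172K 4 to 5). Nampt, the rate-limiting step of NAD salvage from nicotinamide, measured 11.51, 11.39, 11.18 and 11.03 in control and 10.18, 10.21, 10.81 and 9.89 in R172K hearts and fell by 1.00 ± 0.19 (adjusted p = 0.00607). Nmnat1, the nuclear enzyme that completes NAD, fell by 0.55 ± 0.12 and the NAD-consuming Parp1 by 0.43 ± 0.07. Nnmt, which methylates nicotinamide, rose by 0.78 ± 0.18 and the ectoenzyme Bst1 by 1.05 ± 0.25.

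Fuel genes showed single strong changes within lists that were mixed. For glucose uptake and glycolysis 4 of 28 rose (1 on omission of control 1, 2, 3 or 4 or R172K 1 or 4 to 5 without R172K 3) and 4 fell (1 without control 2 to 6 without R172K 3). Of the enzymes that set fructose 2,6-bisphosphate, Pfkfb2, the heart form, fell by 0.74 ± 0.10 and Pfkfb3 rose by 0.60 ± 0.13. For glycogen 6 of 27 rose (0 without control 1 or R172K 1 to 6) and 7 fell (3 without R172K 1 to 7), led by Phkg1, the catalytic subunit of muscle phosphorylase kinase, which fell 2.86-fold from 7.80, 8.15, 8.30 and 7.72 to 6.25, 5.89, 7.08 and 6.69 (adjusted p = 0.00472). Phkb, a regulatory subunit of the same kinase, fell by 0.48 ± 0.10. At pyruvate dehydrogenase (1 of 14 rose, 1 to 2 without R140Q 3 or R172K 3, and 3 fell, 1 without R172K 1 to 5 without R172K 3), the E1 subunit Pdhb rose by 0.58 ± 0.09 and the activating phosphatase Pdp1 fell by 0.37 ± 0.07.

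Ketone and fatty acid genes followed the same mixed course. Bdh1, which oxidises hydroxybutyrate, rose by 1.18 ± 0.20 (adjusted p = 0.00444), while the next enzyme of ketone use, Oxct1, fell by 0.65 ± 0.15 and the monocarboxylate carrier Slc16a7 by 1.10 ± 0.24; of 10 ketone genes 1 rose (1 to 3 without R172K 3) and 3 fell (2 on omission of control 1, 2, 3 or 4 or R172K 2 or 4 to 3). Fatty acid genes rose in 3 of 44 (2 on omission of control 1, 2 or 4 or R172K 1 or 2 to 5 without R172K 4) and fell in 7 (3 without control 2 or R172K 1 to 13 without R172K 3). The electron transfer flavoprotein subunit Etfb fell by 0.70 ± 0.13 and the hydratase Echs1 by 0.56 ± 0.12, while Cpt1a, the liver form of the carnitine transferase, rose by 0.47 ± 0.11 and the triglyceride-forming Dgat1 by 0.65 ± 0.12. The call of Cpt1a ended without the 3 arrays control 3, R172K 3 and R140Q 4 together (adjusted p = 0.0646). Cpt2, the inner membrane carnitine transferase, fell by 0.94 ± 0.23, a call that ended on omission of control 2 or 4 or R172K 1 or 2 (adjusted p = 0.0507 to 0.0641).

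In the respiratory chain, calls were mostly toward lower levels and small, and most members did not pass the test. Of 35 complex I genes 11 fell and none rose, with a median of -0.25, but the count of lower genes ran from 4 without R172K 1 to 16 without R172K 3. The count of higher ones ran from 0 to 1 without R172K 4. Ndufa2 fell by 0.60 ± 0.10 (adjusted p = 0.00361), Ndufs6 by 0.58 ± 0.12 and Ndufc1 by 0.40 ± 0.08. In complexes II to V, 12 of 43 fell and 2 rose (6 without control 2 or R172K 1 to 15 without R172K 3 fell, 0 without R172K 1 to 3 without R172K 3 rose). Muscle forms of cytochrome oxidase subunits were among the lower genes, with differences of -0.79 for Cox7a1, -0.45 for Cox6a2 and -0.43 for Cox8b. Cox6a1, the form of other tissues, rose by 0.76 ± 0.19, with its call ended on omission of control 1 or 2 or R172K 1 or 2 (adjusted p = 0.0564 to 0.072).

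Of 74 mitochondrial ribosomal proteins 10 fell (6 without control 2 or R172K 1 to 17 without R172K 3) and 4 rose (1 on omission of control 1 or 3 or R172K 1 or 2 to 5 without R140Q 3 or R172K 4), with Mrpl36 the largest decrease (-0.77). Cytosolic ribosomal proteins rose in 6 of 56 (3 on omission of control 1, 3 or 4, R140Q 4 or R172K 1 or 4 to 11 without R172K 3) by 0.41 or less, and Rpl3l was the 1 that fell. Among 27 nuclear regulators of mitochondria 6 fell and none rose (3 without control 2 to 9 without R172K 3 fell, 0 to 1 on omission of R140Q 1 or R172K 3 or 4 rose). Tfb1m, which modifies mitochondrial ribosomal RNA, fell by 1.13 ± 0.21, the fatty acid receptor Ppara by 0.96 ± 0.19 (adjusted p = 0.00746) and its partner Rxra by 0.41 ± 0.08.

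Dioxygenases that use 2-oxoglutarate, a family that D-2-hydroxyglutarate can inhibit, had a median difference of -0.01. Their share of increases was near the 6.23% of all genes, and their share of decreases was above the 6.78% of all genes. Of 42 members 3 rose (1 on omission of control 4 or R172K 1 or 2 to 4 without control 3 or R172K 3) and 7 fell (3 without R172K 1 to 8 on omission of R140Q 2 or 3 or R172K 3). Egln1, the prolyl hydroxylase that marks HIF for destruction, measured 11.07, 11.25, 11.20 and 11.24 in control and 10.33, 10.40, 10.80 and 10.35 in R172K hearts and fell by 0.72 ± 0.12 (adjusted p = 0.00343). The RNA and DNA repair demethylase Alkbh3 rose by 0.63 ± 0.09, and Alkbh5, which removes m6A, fell by 0.27 ± 0.06. Tet1, a DNA demethylase, fell by 0.68 ± 0.17, with its call ended on omission of control 3 or R172K 1 or 2 (adjusted p = 0.0516 to 0.0527). HIF and its targets rose in 6 of 27 (2 on omission of control 4 or R172K 1 or 2 to 7 without R172K 3) and fell in 3 (1 on omission of control 2 or 4 or R172K 1 to 3), with heme oxygenase Hmox1 up by 1.04 ± 0.16. Hif1a rose by 0.69 ± 0.18, a call that ended on omission of control 1, 2 or 4 or R172K 1, 2 or 4 (adjusted p = 0.0505 to 0.0814).

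Detoxifying enzymes fell in 10 of 43 members and rose in 1 (6 without R172K 1 to 15 without R172K 3 fell). Beside Ces1d and As3mt, the aldehyde dehydrogenase Aldh2 fell by 0.83 ± 0.16, the flavin monooxygenase Fmo5 by 0.87 ± 0.18 and the glutathione transferase Gstt1 by 0.76 ± 0.15; the call of Ces1d ended without R172K 1 (adjusted p = 0.0513). Cyp1b1, a cytochrome P450 found in fibroblasts and vessels, was the member that rose, from 6.61, 6.75, 6.70 and 6.42 to 8.35, 8.26, 7.73 and 7.86, or 2.69-fold (adjusted p = 0.000678). Targets of NRF2 rose in 4 of 35 (2 on omission of control 1 or 2 or R172K 1 or 4 to 6 without R172K 3) and fell in 3 (2 without control 1 or 2 to 4 on omission of R140Q 3 or R172K 1 or 3), where thioredoxin reductase Txnrd1 rose by 0.65 ± 0.10 and Gstp1 fell by 1.07 ± 0.14.

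Lysosome and autophagy genes rose in 10 of 43 members and fell in 2 (4 without R172K 1 to 19 without R172K 3 rose, 2 to 4 without R172K 3 fell). Proton pump subunits Atp6v1b2 and Atp6v1a rose by 0.85 ± 0.14 and 0.47 ± 0.11, cathepsin L (Ctsl) by 0.54 ± 0.10 and the protease Atg4a by 0.70 ± 0.15, and the conjugating enzyme Atg10 fell by 1.03 ± 0.11. Cathepsin S (Ctss), an enzyme of macrophages that is also in their marker list, rose by 1.21 ± 0.32, with its call ended on omission of control 1 or 2 or R172K 1 or 2 (adjusted p = 0.0571 to 0.0798). Heat shock genes were near the background, 3 of 35 higher (2 on omission of control 1, 2 or 4, R140Q 4 or R172K 1, 2 or 4 to 4 without R172K 3) and 2 lower (2 to 3 without R140Q 2 or R172K 3), with the large decrease in Hsph1, a nucleotide exchange factor for Hsp70, from 8.34, 8.53, 8.79 and 8.84 to 6.70, 6.74, 7.86 and 7.28 (-1.48, adjusted p = 0.00254). Of 34 apoptosis and p53 target genes 3 rose (3 to 6 without R172K 3) and 3 fell (3 to 4 without control 4 or R172K 3): Phlda3, a repressor of Akt, rose by 1.46 ± 0.27, while Mdm2, the ligase of p53, Ccng1 and Gadd45a fell by 0.42 ± 0.07, 0.41 ± 0.07 and 0.65 ± 0.12. Both shares of this list were near those of all genes (6.23% and 6.78%).

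Circadian genes moved in both directions. Arntl (BMAL1), the activator of the clock, measured 5.73, 6.15, 5.92 and 5.90 in control and 7.92, 7.39, 6.48 and 6.89 in R172K hearts and rose by 1.24 ± 0.23 (adjusted p = 0.00649), without overlap. The PAR bZIP factors Hlf and Tef fell by 1.22 ± 0.16 and 0.81 ± 0.14, the period gene Per3 by 0.73 ± 0.13 and the Rev-erb repressor Nr1d2 by 0.57 ± 0.11. Hlf measured 8.87, 8.71, 9.00 and 8.77 and 7.29, 7.58, 8.17 and 7.41, with R172K 3 nearest the controls. The third PAR bZIP factor, Dbp, fell by 0.67 ± 0.17, with its call ended on omission of control 1 or 2 or R172K 1 or 2 (adjusted p = 0.0546 to 0.0739). Of 20 members 3 rose (2 on omission of control 1, 2 or 4, R140Q 1, 2, 3 or 4 or R172K 1 or 2 to 5 without R172K 3) and 5 fell (4 on omission of control 1 or 2 or R172K 1 or 2 to 7 without R172K 3). The sources used here do not give the hour at which each heart was taken, so its part in these values cannot be told apart from the genotype.

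The promoters of Per3 (chr4:151044801-151044885, minus strand) and Tef (chr15:81802513-81802572, plus strand) are shown because they hold the motifs through which the clock acts, in capitals: the D-box TTATGTAA, bound by PAR bZIP factors, and the E-box CACGTG, bound by BMAL1 with CLOCK. Both are GRCm38.p6 RefSeq sequences on the gene's strand.
Per3: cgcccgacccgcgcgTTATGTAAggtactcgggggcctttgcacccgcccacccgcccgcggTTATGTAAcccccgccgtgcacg
Tef: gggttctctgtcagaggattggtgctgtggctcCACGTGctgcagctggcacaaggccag

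Per3 holds 2 D-boxes, and Tef holds 1 E-box upstream of 1 of its 2 annotated starts. Over the promoters of all 15613 genes, searched on both strands, 0.999% held this D-box and 9.5% this E-box. The shares were 1.1% and 10.4% for all genes that fell and 0.495% and 12% for all that rose. None of the other called clock genes with a promoter in the table held either motif in its window.

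Of 296 microRNA genes on the array 11 were called, 3 higher and 8 lower, or 3.72% against 13.0% of all genes. The probe sets are named for the hairpins, and the labels do not say whether mature RNA is read. Mature sequences in RefSeq (GRCm38.p6) are shown for 2 pairs that share a seed (bases 2 to 8, in capitals) and moved the same way, and for the largest decrease. Mir15a (chr14:61632075-61632096, minus strand) rose by 0.44 ± 0.13, with its call ended on omission of control 1, 2 or 4, R140Q 3 or R172K 1, 2 or 4 (adjusted p = 0.0534 to 0.111), and Mir15b (chr3:69009775-69009796, plus strand) rose by 0.43 ± 0.12, with its call ended on omission of control 1, 2, 3 or 4, R140Q 3 or 4 or R172K 1, 2 or 4 (adjusted p = 0.0509 to 0.0988). Mir181a-2 (chr2:38852741-38852763, plus strand) fell by 0.56 ± 0.13 and Mir181b-2 (chr2:38853845-38853868, plus strand) by 0.67 ± 0.11; these 2 hairpins neighbour each other on chromosome 2, and the call of Mir181a-2 ended without R172K 3 and R172K 4 together (adjusted p = 0.075). Mir1839 (chr7:81529919-81529940, plus strand) fell by 1.43 ± 0.16.
miR-15a-5p: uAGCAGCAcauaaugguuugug
miR-15b-5p: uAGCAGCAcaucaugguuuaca
miR-181a-5p: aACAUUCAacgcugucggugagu
miR-181b-5p: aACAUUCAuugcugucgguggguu
miR-1839-5p: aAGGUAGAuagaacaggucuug

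Some lists held few calls, or calls that went both ways or hung on single arrays. Median differences were 0.18 for cell cycle, 0.32 for MHC class II and 0.21 for immediate early genes. Without R172K 4 they were 0.02, -0.10 and 0.13. For interferon-stimulated, imprinted and mitochondrial fission and fusion genes the medians were -0.03, -0.01 and -0.05. Of 38 cell cycle genes 1 fell and none rose (1 to 2 without R172K 3 fell, 0 to 1 without R172K 2 rose). The proliferation marker Mki67 measured 6.28, 5.94, 6.16 and 6.24 in control and 5.89, 5.84, 7.25 and 8.47 in R172K hearts and was not called (adjusted p = 0.391), with R172K 3 and R172K 4 above the controls. Cdkn1c, the imprinted inhibitor of the cell cycle, was the member that fell (-0.47). Interferon-stimulated genes fell in 2 of 34 (1 without control 2 or R172K 2 to 3 without R172K 4) and rose in none (0 to 1 without R172K 3), and 9 MHC class II genes held no call. Immediate early factors rose in 4 of 27, but the count ran from 0 on omission of control 1 or 2 or R172K 1 to 6 without R140Q 2 or 4. Of 22 imprinted genes 3 rose (2 without R172K 1 to 3) and 3 fell (2 without R172K 1 or 2 to 5 without R172K 3). Peg3 rose by 1.17 ± 0.25 and Grb10 fell by 0.42 ± 0.08. Mitochondrial fission and fusion genes rose in 2 and fell in 2 of 23 (0 on omission of control 1 or 4 or R172K 1 or 2 to 2 and 0 without control 2 or R172K 1 to 4 without R172K 3).

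The 4 R172K hearts differed among themselves in the size of their shift from control. Over the 116 genes that rose at least 2-fold, which these hearts chose and whose direction the choice fixes, the median shift from the control mean was 1.542, 1.337, 0.648 and 1.811 in R172K hearts 1 to 4, and over the 126 genes that fell it was -1.507, -1.336, -0.724 and -1.522. R172K 3 was the mutant heart nearest the control mean in 99 of the 116 and 107 of the 126 genes, and R172K 4 the farthest in 77 and 61. Myofibroblast markers spread most, with list medians of 1.59, 1.05, 0.19 and 2.72 against -0.18, -0.23, 0.18 and 0.28 in control hearts, so R172K 3 lay within the control range. Transaminase and branched-chain genes had medians of -0.48, -0.47, -0.14 and -0.78 against -0.02, 0.06, -0.05 and 0.02, and stress genes of 0.68, 0.66, 0.19 and 0.83 against 0.01, 0.04, -0.02 and -0.02. In both lists all 4 R172K hearts lay outside the control range. Cell cycle genes went both ways and set R172K 4 apart, with medians of -0.12, -0.24, 0.16 and 0.72.

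**Figure D4:**
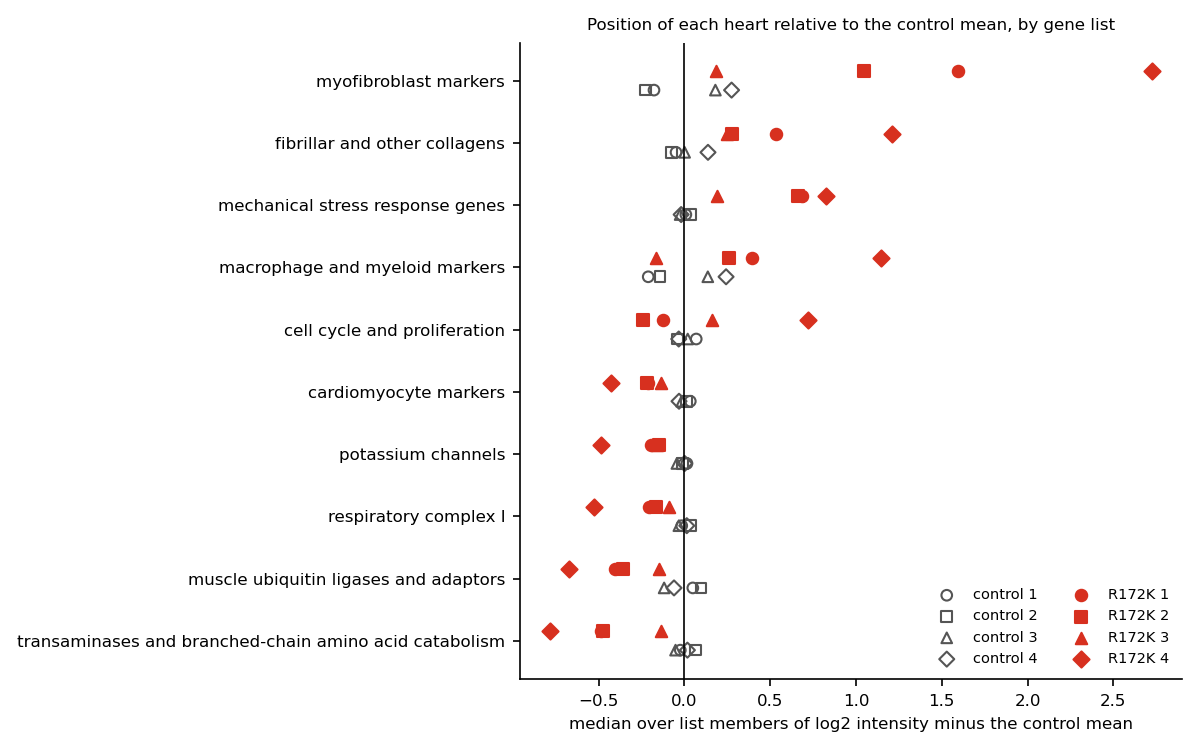
Median over the members of 10 lists of log2 intensity minus the control mean (horizontal axis), for control hearts (open grey symbols) and R172K hearts (red symbols), one symbol shape per replicate number. R172K 4 (diamond) lies farthest from the controls in all 10 lists. R172K 3 (triangle) lies closer to 0 than the other R172K hearts in all lists but those of the cell cycle and of potassium channels.

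Whether R172K hearts differed from R140Q hearts was tested directly, as the difference of the mutant group means; the control arrays enter through the shared spread. Of 19937 genes, 296 passed (1.48%), 97 higher and 199 lower in R172K hearts, and 217 of the 296 were also called against control. The count rested on single arrays, with 1 gene called without R172K 1 or without R140Q 4, the array with lung markers, and 1577 without R172K 3. It was 93 to 118 without any 1 of the control arrays and 9 with the 8 mutant arrays only. The part of lung RNA in these calls was not tested. The gene left was Eml6, a microtubule-associated protein, lower with a difference of -0.63 ± 0.06 (adjusted p = 0.00586), so each other call of this contrast ended without either array. Atrial tissue also differed between these groups, with Myl7 at 6.04, 5.33, 5.54 and 5.23 in R140Q and 8.47, 7.43, 11.36 and 9.21 in R172K hearts, and 5 genes were called with Myl7 intensity as a covariate.

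Itgb6 measured 8.38, 8.35, 8.21 and 8.29 in R140Q and 5.42, 5.74, 7.36 and 6.41 in R172K hearts, with a difference of -2.07 ± 0.31 in log2 (adjusted p = 0.0207). Hsph1 measured 8.85, 8.68, 8.88 and 9.18 and 6.70, 6.74, 7.86 and 7.28, with a difference of -1.75 ± 0.22 (adjusted p = 0.0131), and Lmod3 10.20 ± 0.13 (SD, n = 4) and 9.51, 9.57, 9.41 and 9.32, with a difference of -0.75 ± 0.09 (adjusted p = 0.0112). In each of these genes the mutant groups did not overlap, and the R140Q values lay near the control values. Against control the same genes differed by -0.28, 0.27 and 0.09 in R140Q hearts and by -2.35, -1.48 and -0.66 in R172K hearts, and both comparisons share their control arrays.

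Sprr1a was the only 1 of the 20 stress genes called in this test (1.48% of all genes were), higher in R172K than in R140Q hearts by 2.27 ± 0.48 (adjusted p = 0.0452), with 7.11, 6.24, 6.70 and 6.15 in R140Q hearts. Peg3, an imprinted zinc finger gene, measured 7.22, 6.58, 6.76 and 6.95 in R140Q and 8.65, 8.53, 7.99 and 7.80 in R172K hearts (difference 1.36 ± 0.25, adjusted p = 0.0287), and Cyp1b1 was higher by 1.01 ± 0.16 (adjusted p = 0.0226). Slc38a1, a glutamine transporter, was higher by 1.41 ± 0.23 (adjusted p = 0.0237), from 6.45, 6.81, 7.09 and 6.81 in R140Q to 8.51, 8.63, 7.98 and 7.66 in R172K hearts. It did not differ from control in R172K hearts beyond its error (-0.13 ± 0.23, adjusted p = 0.774). The fibroblast receptor Pdgfra was higher by 0.75 ± 0.11 and Cpt1a by 0.69 ± 0.11, and Ndufa2, Pfkfb2, Mrpl36, Egln1 and Mdm2 were lower, with differences of -0.68 ± 0.10, -0.72 ± 0.10, -0.49 ± 0.09, -0.62 ± 0.12 and -0.45 ± 0.07.

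**Figure D5:**
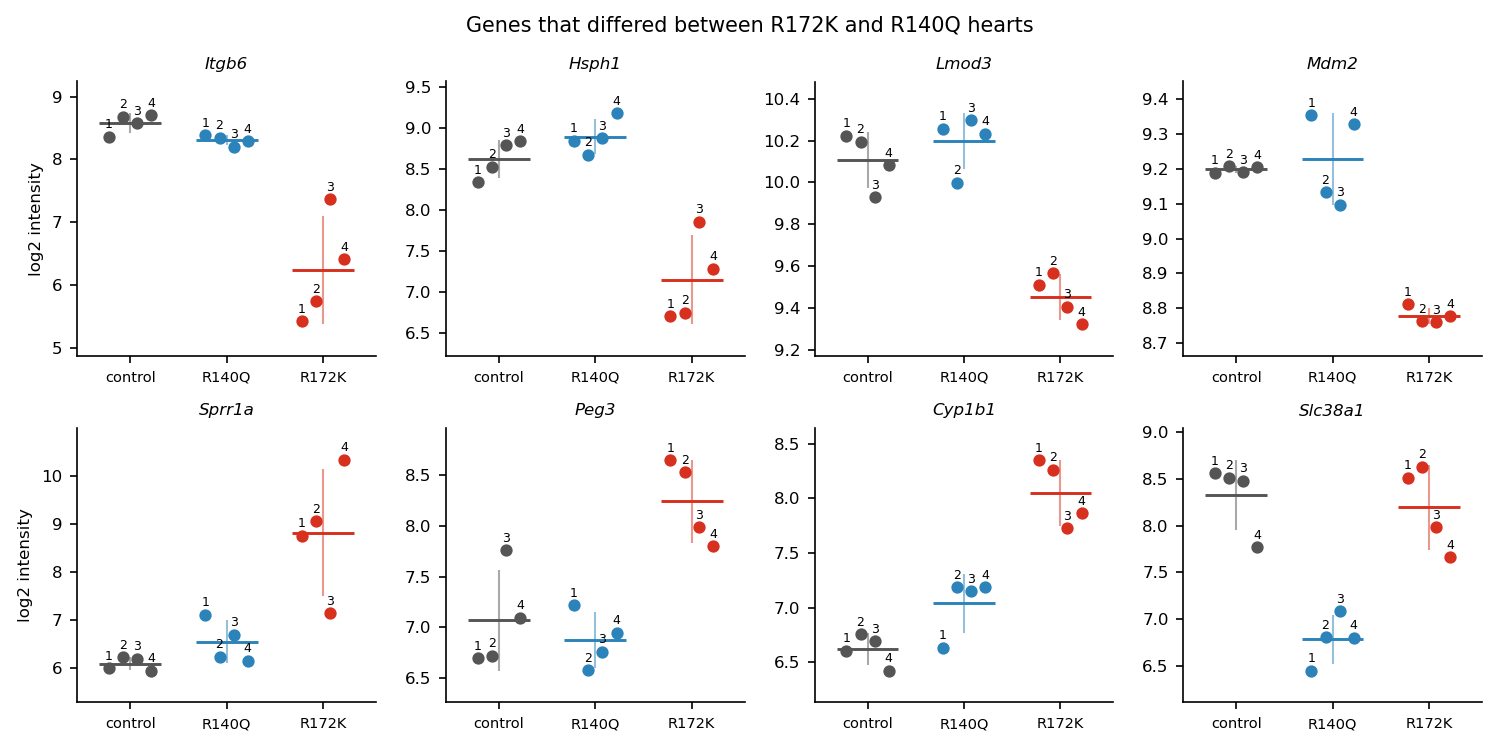
Log2 intensity (vertical axis) of 8 genes that differed between R172K and R140Q hearts, in all 3 groups. Points are single hearts numbered by replicate, horizontal lines are means and vertical lines are 1 SD either side (n = 4). Itgb6, Hsph1, Lmod3 and Mdm2 are lower in R172K than in both other groups, and in Slc38a1 it is the R140Q group that lies apart.

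The other large differences from R140Q hearts lay in genes with few ties among them. Higher in R172K hearts were the atrial light chain Myl4 (3.52 ± 0.76), the plasma protein fetuin A (Ahsg, 1.88 ± 0.35), Fam122b (1.37), the macrophage genes Ms4a4a (1.23) and Fcgr2b (1.12), the olfactory receptor Olfr920 (1.22) and the uroplakin Upk1b (1.16). Myl4 marks atrial tissue, which was unequal among the arrays, and the groups overlapped against control (10.32, 8.25, 13.20 and 11.06 in control and 11.82, 11.13, 12.70 and 11.91 in R172K hearts); the part of atrial tissue was not tested. Lower were the phospholipase Plaat1 (-1.72), Fam81a (-1.28), Cfap20dc (-1.26), Morn2 (-1.19), the muscle protein Ky (-1.13), the water channel Aqp8 (-1.05), sarcospan (Sspn, -0.99) and Sh3bgr (-0.96). The call of Ahsg against control ended on omission of control 1, 2 or 4, R140Q 1, 3 or 4 or R172K 1, 2 or 3 (adjusted p = 0.0521 to 0.121). That of Sh3bgr against control ended on omission of control 1, 2, 3 or 4, R140Q 1, 3 or 4 or R172K 1 or 2 (adjusted p = 0.0524 to 0.126). Nmrk2 and the matrix genes that led against control did not pass the test against R140Q hearts: Timp1 differed by 2.33 ± 0.62 (adjusted p = 0.0792), Lox by 2.36 ± 0.60 (adjusted p = 0.0715), Postn by 0.89 ± 0.56 (adjusted p = 0.481) and Nmrk2 by 1.26 ± 0.69 (adjusted p = 0.405).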

How the data were processed

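Total RNA of 12 mouse hearts was hybridised to 12 arrays. The authors deposited 1 intensity per probe set, made with RMA (background correction, normalization between arrays and summary over probes), per the submitters' processing notes; no version or annotation is given there. The deposited intensities were linear (array medians 74.8 to 78.0, highest value 17591), where log2 values had been planned for, so log2 was taken with no pseudocount. Of 34760 probe sets 21640 carried 1 symbol in the platform table, 1321 several and 11799 none, which gave 19937 genes; the probe set with the highest mean stood for a gene. No 2 arrays held the same values.

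Group means of all 12 arrays were fitted with limma 3.58.1 in R 4.3.3 (lmFit, eBayes, two-sided, 9 residual and 3.54 prior degrees of freedom), with Benjamini-Hochberg adjustment over 19937 genes. Errors of differences are limma's moderated SE. The code of the fit was tested on simulated data. Gene lists (50 pathways, 17 cell types) were summarised by counts and medians, and not all cell type lists are given here.

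Named were the 15 largest differences in each direction, up to 5 members of a list with the smallest p, Idh2, Nmrk2, Timp1, Lox and As3mt, and the 10 largest differences from R140Q hearts in each direction, leaving out predicted genes and clone names; other genes were chosen after their values were seen. The comparison, its lists and its members were chosen with earlier results of these data known. Alternatives covered arrays, blocks, probe sets, filters, pseudocount, normalization, weights, thresholds and the omission of each array in turn.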

Additional observations from a re-analysis of the deposited data

Results flagged for a closer look

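In 28 of the 444 groups of 4 hearts looked at (control and R172K hearts in 222 genes), 1 heart lay apart from the other three. The measure is the gap to the nearest other heart as a share of the whole range of the group, and a share above Dixon's critical value for groups of 4 counted. Chance gives about 1 in 20 groups.

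R172K 3 was the heart apart in 13 genes. In each of them except Baiap2l1 it lay on the side of the control hearts. The share was 0.939 for Baiap2l1, 0.936 for Cabcoco1, 0.893 for Alkbh3, 0.847 for Atg4a, 0.933 for Cfap20dc, 0.948 for Cpt2, 0.856 for Egln1, 0.862 for Enah, 0.901 for Flnc, 0.918 for Gpt2, 0.918 for Kcnd2, 0.881 for Ndufa2 and 0.976 for Txnrd1. Txnrd1, with the highest share, stood at 8.31 in R172K 3 and between 8.73 and 8.74 in the other R172K hearts, and Cpt2 at 11.10 against 10.06 to 10.11.

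R172K 4 was the heart apart in 6 genes, with a share of 0.832 for Acadsb, 0.899 for Adgre1, 0.929 for Idh2, 0.921 for Kcnk6, 0.836 for Myh6 and 0.862 for Myh7. Adgre1, a macrophage gene, stood at 8.74 against 6.99 to 7.17 in the other R172K hearts, and Idh2 at 11.88 against 12.52 to 12.57. A control heart was apart in 9 genes, with a share of 0.837 for Ankrd2 (control 1), 0.923 for Aspn (control 2), 0.850 for Cox7a1 (control 3), 0.952 for Ctf1 (control 2), 0.858 for Dbt (control 3), 0.867 for Fhl2 (control 3), 0.893 for Pfkfb3 (control 1), 0.917 for Sh3bgr (control 1) and 0.903 for Slc38a1 (control 4). A high share can rest on a small gap: Cox7a1 stood at 13.11 against 13.12 in the other control hearts, and Ctf1 at 6.69 against 6.57 to 6.58. The gap was wider for Slc38a1, at 7.77 against 8.48 to 8.56.

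R172K hearts differed from R140Q hearts by limma's test of the difference itself in 41 of the 222 genes. Higher in R172K hearts, as log2 differences, were Sprr1a (2.266), Ahsg (1.878), Atp6v1b2 (0.632), Cpt1a (0.690), Cyp1b1 (1.010), Fam122b (1.370), Fcgr2b (1.124), Ms4a4a (1.234), Myl4 (3.520), Olfr920 (1.221), Pdgfra (0.750), Peg3 (1.364), Slc38a1 (1.407) and Upk1b (1.159). Lower were Itgb6 (-2.074), Aqp8 (-1.049), Asb10 (-0.600), Asb18 (-0.594), Atg10 (-0.557), Cdkn1c (-0.436), Cfap20dc (-1.260), Colgalt2 (-0.478), Egln1 (-0.621), Eml6 (-0.632), Fam81a (-1.281), Hsph1 (-1.752), Kcnn2 (-0.760), Ky (-1.134), Lmod3 (-0.745), Mdm2 (-0.452), Morn2 (-1.194), Mrpl36 (-0.493), Ndufa2 (-0.676), Ndufc1 (-0.350), P4ha2 (-0.679), Pfkfb2 (-0.722), Phkb (-0.567), Plaat1 (-1.715), Sh3bgr (-0.962), Sspn (-0.987) and Thbd (-0.513). Adjusted p-values ran from 0.00586 (Eml6) to 0.0469 (Kcnn2). Each of these calls except that of Eml6 ended without R172K 1 or without R140Q 4.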

How the results depend on the processing

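The count of genes called between R172K and control hearts was 2593. It moved by more than 1.5 times to 773 at an adjusted p under 0.01, to 4491 with array weights (2334 higher), and over fits without 1 array it ran from 1327 (without R172K 1) to 4157 (without R172K 3). It lay between 1788 and 3544 under the other alternatives, namely 8 arrays only (1788), the replicate number as a block (2014), robust trend fitting (2481), Myl7 as a covariate (2535), median centring (2543), means of probe sets (2585), every probe set (2647), a pseudocount of 16 (2671), quantile normalization (2681), no dim genes (2837), without control 3, R172K 3 and R140Q 4 (3442) and without R172K 3 and R172K 4 (3544, added after seeing the data). Array weights were lowest for R172K 3 (0.365) and R172K 4 (0.366). Scaling moved the median of all genes to -0.008 or -0.013.

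The count between R172K and R140Q hearts, 296, held in few settings. It was 1 at an adjusted p under 0.01, 9 with the 8 mutant arrays only, 5 with Myl7 as a covariate, 5 with every probe set, 11 with the replicate block, 179 with robust trend fitting, 806 without control 3, R172K 3 and R140Q 4, 1689 without R172K 3 and R172K 4 and 1774 with array weights. Without 1 array it ran from 1 to 1577. The cause of these moves was not tested. Samples with the same replicate number correlated at -0.003, 0.152, -0.128 and 0.129 in their deviations from the group means, so the numbers were not treated as pairs.

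Of the 202 called genes named in the report, 178 kept the call in each fit without 1 array. None of these 202 changed sign in the alternatives run. Of the 20 named genes that were not called against control, 4 changed sign, none of them with a call. Slc38a1 turned to 0.085 with array weights and 0.239 without R172K 3 and R172K 4, and ran from -0.320 (without control 4) to 0.044 (without R172K 4) over fits without 1 array. Adgre1 was -0.136 without R172K 3 and R172K 4 and ran from -0.187 (without R172K 4) to 0.398 (without R172K 3). Mki67 was -0.290 without R172K 3 and R172K 4. Myl7 was -0.164 with array weights and -1.107 without R172K 3 and R172K 4 and ran from -0.899 (without control 2) to 1.204 (without control 3). Myl4, Adhfe1, Bcat1 and Myh6 passed the test in at least 1 alternative, the last 3 of them without R172K 3. The cause was not tested. The number of arrays limits the precision, and the deposited values carry no background signal to set dim probe sets against.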
